A study of Mus musculus with 120 samples.

Results

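Sox, T-box and forkhead genes encode 3 families of DNA-binding transcription factors, and 46 of them were examined here for DNA methylation in an amyloid mouse model. They are 16 Sox genes, 10 T-box genes (Tbr1 and Eomes among them) and 20 forkhead (Fox) genes, out of 21631 coding genes on the autosomes and X. A gene was given every called 1 kb window that overlapped its body or lay within 10 kb of it, which yielded 46 windows of the 8961 in the authors' deposited table. Whole-genome bisulfite sequencing had been applied to App-NLGF mice and wild-type mice at postnatal weeks 3, 8 and 24, in hippocampus and in blood. App-NLGF mice (APP-nlgf in the labels) carry a knocked-in App gene with a humanised amyloid-beta sequence and familial Alzheimer mutations, so the mutant App is present in each tissue under its own promoter, with no transgene. The labels give 12 groups of 10 libraries, with 5 males and 5 females each, namely App-NLGF hippocampus, wild-type hippocampus, App-NLGF blood and wild-type blood at each of the 3 ages. Per the design text, the authors set the genotypes against each other separately for each tissue and age, allowing for sex.

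Sox proteins bind DNA through an HMG box related to that of Sry, T-box proteins through the domain first known from Brachyury, and forkhead proteins through a winged helix. They set cell identity in the embryo. Sox1 and Sox2 of the SoxB group hold neural progenitors, and SoxE factors make glia and neural crest. Tbx factors pattern heart and limbs, and Foxa factors open endodermal chromatin. In hippocampus, Sox2 marks neural stem cells, Eomes marks intermediate progenitors of the dentate gyrus, Tbr1 marks glutamatergic neurons and Sox10 marks oligodendrocytes. In blood few of these genes are in use, with exceptions such as Eomes in natural killer and T cells, Sox6 in red cell precursors and Foxp1 in lymphocytes. Methylation falls on cytosine in CpG pairs, and genes of this kind often start in CpG-rich stretches that are little methylated in most cells.

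The authors' deposited table gives each window's change in percentage points with its p and adjusted p, and it holds windows of at least 10 points in either direction with an adjusted p under 0.1. A negative value is taken to mean less methylation in App-NLGF, which rests on the name of the comparison and would turn round if that order were the other way. Methylation levels and read depth of single libraries were not analysed here, so the spread among animals is unknown. The labels do not say that hippocampus and blood came from the same animals. Since the tissues were taken whole, a shift in the mix of cells and a change within cells cannot be told apart, and no marker level is at hand to check either tissue. For a gene without a window, no difference, a difference short of the thresholds and thin coverage cannot be told apart.

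Promoter sequences are shown for some of the genes with a window at or near the start, and for 1 gene without. RefSeq entries of GRCm38.p6, from 250 bases before to 50 bases after a gene start, were matched for 29 of the 46 genes. Shown first are the promoters of Foxl2 and Sox14, which lay wholly inside a called window in blood at week 8. Next are Sox11 and Sox8, whose nearest windows began 283 and 315 bases upstream of the start, and last is Tbr1, which had no window in any list. Each is printed 5′ to 3′ on the gene's strand with every CpG pair in capitals. The positions are chr9:98955357-98955656 on the plus strand for Foxl2, chr9:99876121-99876420 on the minus strand for Sox14, chr12:27342669-27342968 on the minus strand for Sox11, chr17:25570637-25570936 on the minus strand for Sox8 and chr2:61804203-61804502 on the plus strand for Tbr1.
Foxl2: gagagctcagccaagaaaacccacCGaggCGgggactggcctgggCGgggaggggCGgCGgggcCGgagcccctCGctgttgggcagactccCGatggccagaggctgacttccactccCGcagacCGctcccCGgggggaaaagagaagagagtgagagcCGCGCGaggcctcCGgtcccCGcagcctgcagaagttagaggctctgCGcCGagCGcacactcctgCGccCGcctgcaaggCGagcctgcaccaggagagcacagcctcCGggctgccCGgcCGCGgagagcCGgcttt
Sox14: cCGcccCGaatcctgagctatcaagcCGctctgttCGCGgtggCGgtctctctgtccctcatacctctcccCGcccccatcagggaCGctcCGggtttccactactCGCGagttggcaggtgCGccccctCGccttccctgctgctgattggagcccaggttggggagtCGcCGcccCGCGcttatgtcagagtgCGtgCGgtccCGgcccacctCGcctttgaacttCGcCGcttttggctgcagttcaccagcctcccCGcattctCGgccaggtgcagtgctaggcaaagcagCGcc
Sox11: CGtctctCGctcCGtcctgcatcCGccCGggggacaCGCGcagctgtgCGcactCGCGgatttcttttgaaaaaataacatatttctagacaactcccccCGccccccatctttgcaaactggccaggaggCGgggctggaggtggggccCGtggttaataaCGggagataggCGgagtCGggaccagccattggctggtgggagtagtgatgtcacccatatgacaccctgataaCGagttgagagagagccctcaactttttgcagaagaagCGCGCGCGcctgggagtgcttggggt
Sox8: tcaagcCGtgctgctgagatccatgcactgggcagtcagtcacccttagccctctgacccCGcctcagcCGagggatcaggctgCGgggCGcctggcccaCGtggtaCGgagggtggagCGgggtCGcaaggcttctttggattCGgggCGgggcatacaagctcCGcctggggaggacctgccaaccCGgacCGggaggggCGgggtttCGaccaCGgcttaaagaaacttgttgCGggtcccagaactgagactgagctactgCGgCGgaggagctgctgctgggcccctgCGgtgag
Tbr1: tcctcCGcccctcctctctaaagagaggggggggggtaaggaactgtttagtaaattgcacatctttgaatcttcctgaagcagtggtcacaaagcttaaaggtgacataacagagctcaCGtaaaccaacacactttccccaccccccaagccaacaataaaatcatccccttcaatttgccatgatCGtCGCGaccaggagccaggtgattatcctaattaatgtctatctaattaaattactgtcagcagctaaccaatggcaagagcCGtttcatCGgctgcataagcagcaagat
Foxl2 has 27 CpG pairs in its 300 bases, Sox14 has 26, Sox11 and Sox8 have 21 each and Tbr1 has 7. Tbr1 has the lowest count of the matched genes without a window in blood at week 8 and does not stand for them. Taking each gene's highest entry, their median was 26.5 CpG pairs (12 genes), against 21 in genes with a window there (17 genes). Over the 39 promoter entries of these genes 51.3% held at least 20 CpG pairs, against 26.5% of all 32851 entries.

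Blood at week 8 held nearly all of the windows. There 27 of the 46 genes had a called window, and all 41 windows were lower in App-NLGF. Among coding genes 19.5% had a window in this comparison and 18.8% had a lower one. The other lists held 5 windows of these genes: 3 in hippocampus at week 3, where 2.6% of coding genes had one, 1 in hippocampus at week 24 (2.43%) and 1 in blood at week 3 (2.79%). Hippocampus at week 8 and blood at week 24 held 0, where 1.74% and 1.25% of coding genes had a window. The blood list of week 8 was also the longest of the 6 comparisons, with 4526 windows, of which 88.9% were lower. No window was listed in more than 1 comparison or shared by 2 of the genes, and 18 of the 46 genes had none in any list.

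**Figure D1:**
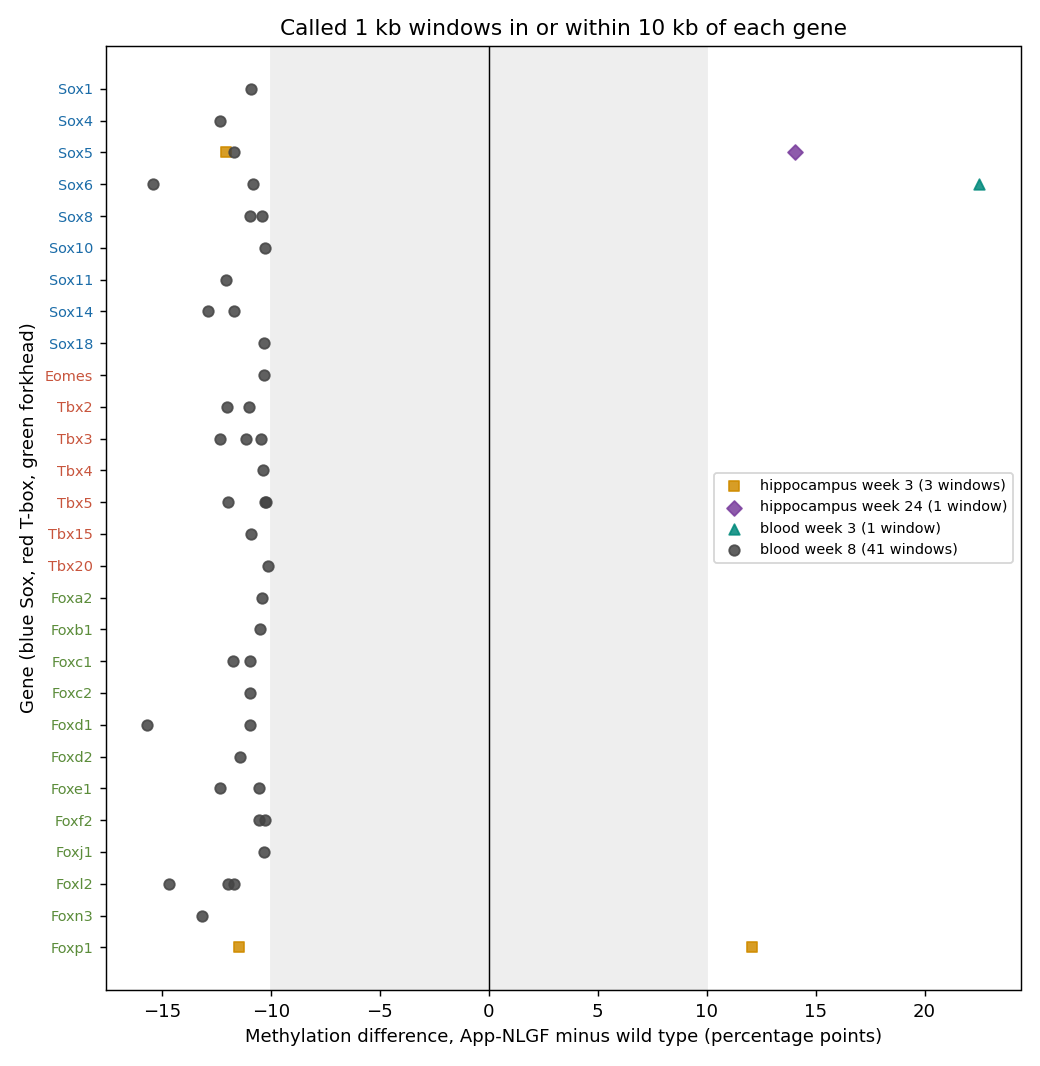
Methylation difference (App-NLGF minus wild type, percentage points) of each of the 46 called windows, by gene, for the 28 genes with a window. Symbols stand for the comparison, and the grey band from -10 to 10 marks differences below the listing threshold. The 41 windows of blood at week 8 all lie between -15.7 and -10.1 points, and higher windows belong to Sox5, Sox6 and Foxp1.

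The 46 genes are a selection from their families, and the rest of the families did not share the high count. Of 34 further Sox, T-box and forkhead genes, 6 had a window in blood at week 8 (17.6%), close to the share of all coding genes. With both sets together it was 33 of 80 genes (41.3%). The genes were chosen with earlier results of these data known, so the difference between the 2 sets is no evidence about the families as such. The 6 further genes were the forkhead genes Foxb2, Foxe3, Foxn4 and Foxo3 and the T-box genes Mga and Tbx6, and their 7 windows were lower. In the authors' deposited table the largest of these differences were -12.8 points inside Foxe3, a lens factor gene, and -12.3 points near Foxb2, followed by -11.2 points at Foxn4, a retinal and spinal interneuron factor. In blood at week 3, 3 of the 34 further genes had a window (8.82%), against 2.79% of coding genes. The authors' deposited table gives 18.8 points at Foxp3, the regulatory T cell factor, -17.3 points at Foxo3, which controls stress response and survival, and 10.5 points at Foxe3. In hippocampus at week 24 the further genes had 1 window, 5.49 kb from Tbx10 at -16.6 points in the authors' deposited table.

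**Figure D2:**
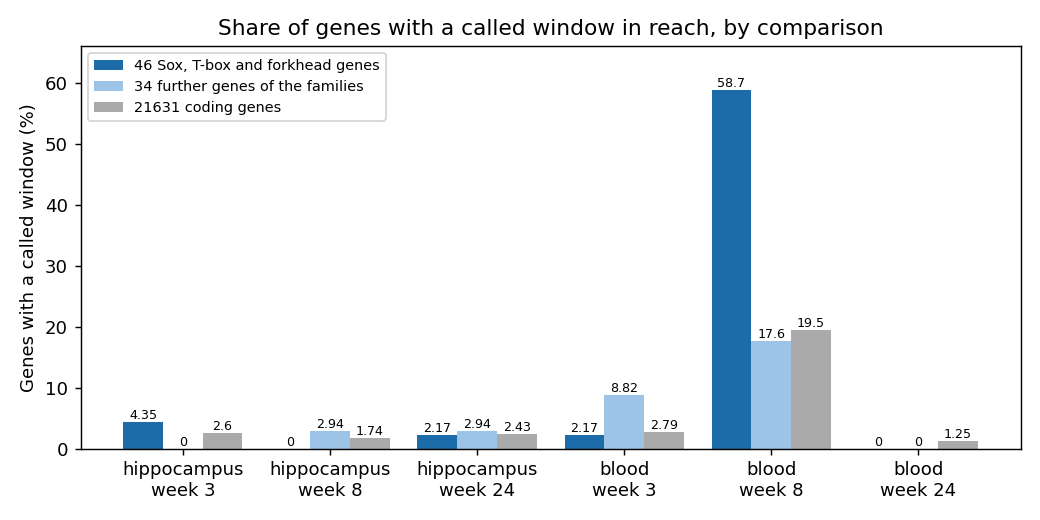
Percentage of genes with a called window in the body or within 10 kb, for the 46 genes, for 34 further genes of the families and for 21631 coding genes, in each of the 6 comparisons. The 46 genes stand at 58.7% in blood at week 8 and at 4.35% or less elsewhere, and no error bar can be drawn for a single list.

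In hippocampus the windows fell inside the bodies of 2 very long genes. Sox5, a SoxD factor of cortical neuron and cartilage development, spans 954 kb, and Foxp1, a forkhead repressor in neurons and lymphocytes, spans 597 kb. At week 3 the Sox5 window (chromosome 6, 143867001 to 143868000) stood at -12.0 points in the authors' deposited table (adjusted p = 0.0547). Foxp1 held 2 windows of opposite sign 49 kb apart, with 12.1 points at 99432001 to 99433000 (adjusted p = 0.0707) and -11.5 points at 99383001 to 99384000 (adjusted p = 0.0978) in the authors' deposited table. Foxp1 thus gave no direction for the gene as a whole, and neither window of it passed an adjusted p under 0.05. At week 24 Sox5 held another window (144504001 to 144505000) at 14.1 points in the authors' deposited table (adjusted p = 0.0480). It lay 637 kb from the week 3 window and had the other sign. The remaining SoxD gene with a window in a list other than blood at week 8 was Sox6. Among genes of hippocampal progenitors, neurons and glia, Sox2, Sox9, Sox10, Eomes and Tbr1 had no window in hippocampus. At weeks 3, 8 and 24 only 2.6%, 1.74% and 2.43% of coding genes had one, so the absence says little about these genes.

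Among coding genes of 100 kb or more outside the set, 9.33% had a window in hippocampus at week 3, and 2 of the 6 Sox, T-box and forkhead genes of that length did. None of the 30 genes under 10 kb had one there, where 1.06% of other coding genes of that length did. Per length of sequence, the 4695 grid windows of the set held 0.639 called windows per 1000 in hippocampus at week 3, and the grid of all coding genes held 0.392.

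In blood at week 3 the single window lay inside Sox6, whose protein silences embryonic globin genes in red cell precursors and acts in oligodendrocyte and cartilage development. It stood at 22.5 points in the authors' deposited table (chromosome 7, 115880001 to 115881000, adjusted p = 0.0550), the 127th largest absolute difference of 1153 in that list. At week 8 Sox6 held 2 lower windows in blood. The authors' deposited table gives -15.4 points at 115966001 to 115967000 (adjusted p = 0.0582) and -10.8 points at 116032001 to 116033000 (adjusted p = 2.37e-05). The week 3 window lay 86 kb from the nearer of these, and whether the 2 ages differ was not tested.

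Sox genes in blood at week 8 had 9 of 16 members with a window, and their 12 windows had a median of -11.3 points. Over all coding genes 19.5% had a window there, and of the 3 further Sox genes 0 had one. Each of the 5 Sox subgroups present had at least 1 member with a window. In subgroup B, Sox14, a transcriptional repressor that acts in interneuron development, held 2 adjoining windows across its start. In the authors' deposited table they stood at -12.9 points (chromosome 9, 99875001 to 99876000, adjusted p = 0.00301) and -11.7 points (99876001 to 99877000, adjusted p = 0.00154). Sox1, a neural progenitor factor, had a window 3.52 kb upstream at -10.9 points in the authors' deposited table (adjusted p = 0.0179), over the noncoding gene Sox1ot. Sox2 and Sox21 had none within reach. In subgroup C, whose members drive neuronal differentiation, Sox11 stood at -12.0 points (adjusted p = 0.000550) directly upstream of the printed promoter, and Sox4 at -12.3 points 4.30 kb away (adjusted p = 0.0538), in the authors' deposited table. Of the Sox windows, that of Sox6 at 116032001, named above, had the smallest adjusted p, and it overlaps the noncoding gene Sox6os.

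Sox5, beside Sox6 in subgroup D, held a window at the 5′ end of its body (144781001 to 144782000) at -11.7 points in the authors' deposited table (adjusted p = 0.00139). The Sox5 windows of the 3 lists thus lay at 3 separate places in the gene. In subgroup E, Sox8, a glial and testis factor, had windows 315 bases upstream of its start at -10.95 points (adjusted p = 0.0596) and 8.89 kb downstream of the gene at -10.4 points (adjusted p = 0.00295), in the authors' deposited table. The oligodendrocyte factor Sox10 had a window in its body at -10.2 points (adjusted p = 0.0268) in the authors' deposited table. The first Sox8 window also overlapped the noncoding gene Cerox1. In subgroup F, the endothelial factors, the authors' deposited table lists Sox18 alone, at -10.3 points 8.36 kb from the gene (adjusted p = 0.00248). That window overlapped the neighbouring gene Tcea2, so it belongs to Sox18 by distance alone.

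T-box genes in blood at week 8 had 7 of 10 members with a window, with 12 windows and a median of -10.7 points. Of the 7 further T-box genes 2 had a window there, and 19.5% of coding genes did. Tbx2 and Tbx3 are closely related repressors that act in heart and limb development. Tbx5 and Tbx4 are activators needed for forelimb and heart and for hindlimb. The genes stand in pairs, Tbx2 44.4 kb from Tbx4 on chromosome 11 and Tbx3 112 kb from Tbx5 on chromosome 5, and all 4 held windows. Tbx2 had the smallest adjusted p of the whole set, 4.00e-06 at -11.0 points (85844001 to 85845000, 2.05 kb beyond the gene), and 7.46e-06 at -12.0 points (85832001 to 85833000, over the lower end of its body), in the authors' deposited table. These ranked 174th and 203rd by p in the list. Tbx4 held a window in its body at -10.3 points (85891001 to 85892000, adjusted p = 2.98e-05) in the authors' deposited table.

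Tbx3 held 3 windows within 5 kb, at -12.3 points (119668001 to 119669000, adjusted p = 0.00403), -10.4 points (119669001 to 119670000, adjusted p = 0.00581) and -11.1 points (119672001 to 119673000, adjusted p = 0.0176), in the authors' deposited table. The first 2 adjoin each other over the noncoding gene Tbx3os1, and the last is inside Tbx3. Tbx5 also held 3 windows, all in its body, with -10.2 points (119831001 to 119832000, adjusted p = 0.000428), -12.0 points (119800001 to 119801000, adjusted p = 0.0542) and -10.3 points (119840001 to 119841000, adjusted p = 0.0948) in the authors' deposited table. Eomes, the T-box factor of natural killer cells, effector T cells and hippocampal progenitors, had a window across the 3′ end of its body at -10.3 points in the authors' deposited table (chromosome 9, 118486001 to 118487000, adjusted p = 5.44e-05). Its absolute difference was below the median of the set. Tbx15, a factor of skeleton and skin, stood at -10.9 points (adjusted p = 0.0326) and the heart factor Tbx20 at -10.1 points 2.70 kb upstream (adjusted p = 0.00984), the smallest absolute difference of the set, in the authors' deposited table. Tbx1, Tbx18 and Tbr1 had no window within reach.

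Forkhead genes in blood at week 8 had 11 of 20 members with a window, with 17 windows and a median of -11.0 points. Of the 24 further forkhead genes 4 had a window there, beside 19.5% of coding genes. Foxd1, a factor of kidney stroma and retina, held the largest difference of the set, -15.7 points 8.30 kb downstream (chromosome 13, 98365001 to 98366000, adjusted p = 0.000107), and -11.0 points in the adjoining window (adjusted p = 0.0198), in the authors' deposited table. Foxl2, which maintains granulosa cells of the ovary, held 3 windows. In the authors' deposited table they stood at -14.7 points 2.61 kb upstream (chromosome 9, 98952001 to 98953000, adjusted p = 2.87e-05), at -12.0 points over the printed promoter (98955001 to 98956000, adjusted p = 0.00115) and at -11.7 points 6.88 kb downstream (adjusted p = 0.00555). The first 2 overlapped the noncoding gene Foxl2os. Foxl2 thus had lower windows before, at and beyond its short body of 2.52 kb.

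On chromosome 13, Foxf2, a factor of gut and palate mesenchyme, lies 175 kb from Foxc1, a factor of eye and vessel development. In the authors' deposited table Foxc1 held -11.7 points 4.65 kb upstream (31801001 to 31802000, adjusted p = 0.000424) and -10.9 points 2.65 kb upstream (adjusted p = 0.0464). Foxf2 held -10.6 points in its body (adjusted p = 0.0200) and -10.3 points 9.82 kb upstream (adjusted p = 0.0151) in the authors' deposited table. The Foxf2 window upstream is the one nearest to the limit of 10 kb from inside. Foxq1, which lies in the same cluster, had its nearest window 54.0 kb away. Foxe1, the thyroid factor, held -12.3 points 3.64 kb away (chromosome 4, 46339001 to 46340000, adjusted p = 8.32e-05) and -10.5 points at the lower end of its body (adjusted p = 0.0158) in the authors' deposited table, both over the noncoding gene Gm12446.

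Of the forkhead genes with 1 window, Foxn3, a repressor in the cell cycle checkpoint, stood at -13.2 points (adjusted p = 0.0312) and the pioneer factor Foxa2 at -10.4 points 1.03 kb upstream (adjusted p = 0.000538), in the authors' deposited table. The other 4 were Foxb1, Foxc2, Foxd2 and Foxj1, with differences between -11.4 points at Foxd2 and -10.3 points at Foxj1 in the authors' deposited table. Foxj1 directs motile cilia, and Foxc2 acts in lymphatic vessels. The P group (Foxp1, Foxp2, Foxp4) and the K group (Foxk1, Foxk2) had 0 of 5 members with a window in blood at week 8. Over all coding genes 19.5% had one there, and 5 genes are too few to set against that share.

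The differences were small and close to one another. The 41 windows had a median of -11.0 points, against -11.3 points for the whole list and -11.6 points for its lower windows. Of the 41, 22 were under 11 points in absolute size and 2 reached 15 points, at Foxd1 and Sox6, where 12.9% of the list did. Of the 41, 24 had an adjusted p under 0.01 (58.5%), against 41.2% of the list. None was among the 100 smallest p of the list and 8 were among the 500 smallest. No test was made of any of these shares.

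**Figure D3:**
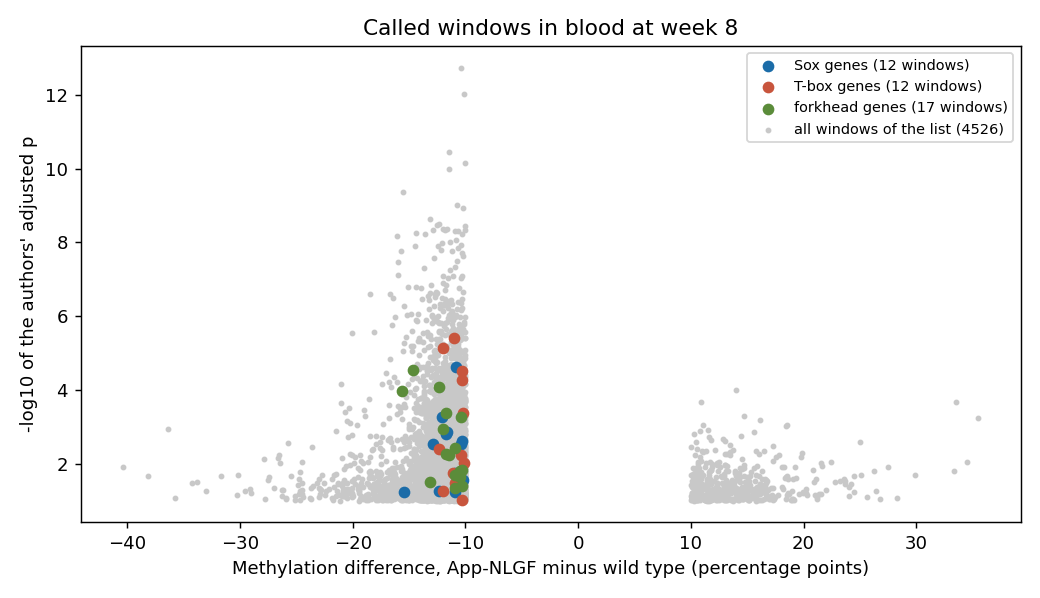
Each called window in blood at week 8, with its methylation difference (App-NLGF minus wild type, percentage points) across and the negative log10 of the authors' adjusted p upwards. Coloured points are the 41 windows of Sox, T-box and forkhead genes, which lie on the lower side near -11.0 points, and grey points are the 4526 windows of the list.

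These windows overlapped coding genes, and lay at gene ends, less often than the windows within reach of any coding gene. The counts below are not set per length of sequence. The flank out to 10 kb is longer than the stretch counted as an end, so they do not compare density. Of the 41, 19 overlapped the body of their own gene, and with the Sox18 window, which lies in Tcea2, 20 overlapped the body of some coding gene (48.8%). Of the 3293 windows within reach of any coding gene, 86.7% did so. The 22 windows that missed their own gene lay nearby, 4 of them within 1 kb, 11 between 1 and 5 kb and 7 between 5 and 10 kb. At most 1 kb from either end of some coding gene lay 14 of the 41 (34.1%), against 57.5% of the windows within reach of any coding gene. Short genes have more flank than body, and the bodies of the set had a median length of 6.76 kb, against 17.3 kb for coding genes. Of the 25 windows at genes with a promoter entry, 6 lay within 1 kb of a listed start, at Sox6, Sox8, Sox11, Foxl2 and Sox14, the last with 2. The Sox6 window lay in the gene body, near a listed start inside the gene. The Sox5 window at the 5′ end of its body is not among these 6, as its only listed start lies inside the gene. Windows at genes with no promoter entry could not be placed this way. Some of those lay at an end of their gene, as at Tbx2 and Foxc2, and may be at a start. Of the 22 outside the body, 10 lay upstream and 5 downstream, and the other 7 were at genes with no promoter entry to give the strand. Another gene overlapped 17 of the 41 windows, most of them noncoding neighbours such as Sox1ot, Tbx3os1 and Foxl2os, and 5 had another coding gene within reach.

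**Figure D4:**
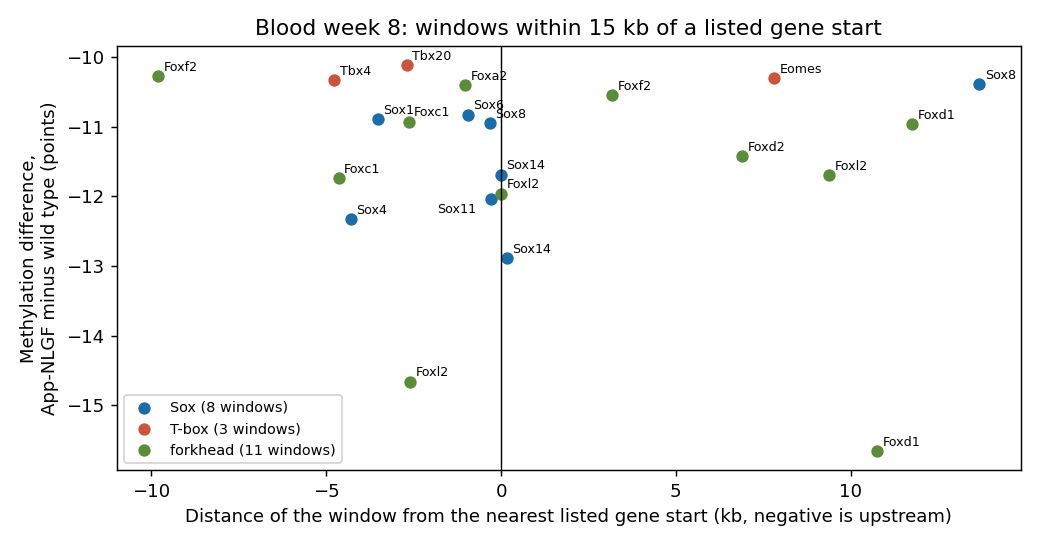
Methylation difference (App-NLGF minus wild type, percentage points) against the distance in kb from the nearest gene start in the promoter table, for 22 windows of blood at week 8 within 15 kb of one. Negative distances are upstream of that listed start, which can lie inside the gene. The Tbx4 window at -4.77 kb and the Sox6 window at -0.954 kb are in the gene body for this reason. The windows spread over both sides, with 6 of them within 1 kb of a listed start, and 3 more lie beyond 15 kb. Among those 3 is the Sox5 window at the 5′ end of its body, as the only listed Sox5 start lies inside the gene.

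The share with a window in blood at week 8 was above that of other coding genes in each length class. Of genes under 10 kb, 19 of 30 in the set had a window (63.3%), against 16.0% of 7711 other coding genes. From 10 to 100 kb it was 4 of 10 against 19.4%, and from 100 kb it was 4 of 6 against 30.4%. Among other coding genes, those with CpG-rich promoters more often had a window in the body or within 10 kb. The share was 26.7% where the promoter held 20 or more CpG pairs and 9.20% where it held under 10. In the set it was 10 of 20 genes and 3 of 4. For genes both under 10 kb and with at least 20 CpG pairs the counts were 9 of 15 in the set and 432 of 1419 other coding genes (30.4%). Within the set the promoters of genes with a window had a median of 21 CpG pairs (17 genes), against 26.5 in genes without (12 genes). These classes were chosen after the values were seen and carry no test. The genes of the set were also chosen with earlier results of these data known, so their higher shares are no evidence about the families.

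**Figure D5:**
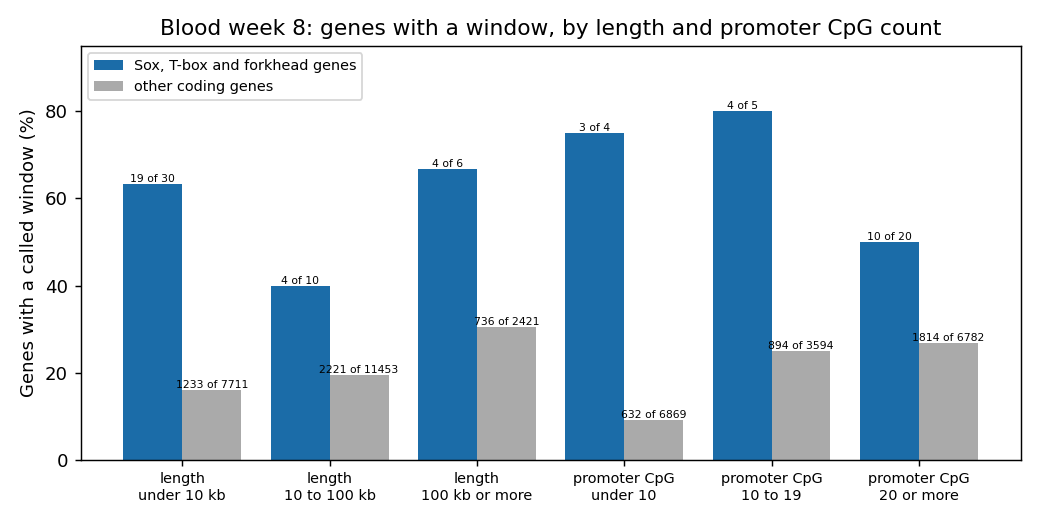
Percentage of genes with a called window in blood at week 8, for the set and for other coding genes, by gene length and by the highest CpG count among a gene's promoter entries. Numbers over the bars give genes with a window of genes in the class, and the bars of the set are higher in each of the 6 classes, with 4 to 30 genes behind each.

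Per length of sequence the set held 8.73 called windows per 1000 grid windows in blood at week 8, against 2.55 over the grid of all coding genes, a ratio of 3.42. In hippocampus at week 24 and blood at week 3 it held 0.213 per 1000, against 0.371 and 0.423. These later counts rest on 1 window each. As with the shares above, the genes were chosen with earlier results known, so the ratio in blood at week 8 may reflect that choice.

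Of the 19 genes without a window in blood at week 8, 7 had one within 50 kb, and all 7 of those nearest windows were lower. The nearest outside the limit was at Sox2, 12.5 kb away, where the authors' deposited table gives -10.4 points (chromosome 3, 34665001 to 34666000, adjusted p = 4.36e-07), a smaller p than that of any window inside the limit. Sox9, the SoxE factor of astrocytes and cartilage, had one 18.2 kb away at -13.3 points (adjusted p = 0.0624) in the authors' deposited table. Sox2 and Sox9 are the 2 genes that a reach of 20 kb would add. The others within 50 kb were Foxf1, Foxk1, Foxk2, Foxp4 and Tbx1. The median distance over the 19 was 104 kb, and for Sox17 and Foxp2 it was above 1000 kb.

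Short motifs of the families themselves were looked for on both strands of the promoter entries. The forkhead motif TGTTTAC was in 2 of 39 entries of the set (5.13%) and in 3.65% of all entries. The Sox motif ACAAAG was in 12 of 39 (30.8%), against 18.7% of all, and ACAATG in 4 of 39 (10.3%), against 12.6%. The T-box motif GGTGTGA was in 1 of 39 (2.56%), against 3.98%. None of the 4 was in the Foxl2 and Sox14 promoters printed above. A match or its absence describes these letters in this stretch and says nothing of binding.

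Partners and targets of the factors were read from lists of related genes. Their counts in blood at week 8 stand beside the 19.5% of coding genes with a window there and the 18.8% with a lower one. Of 10 POU genes, whose proteins pair with Sox factors on DNA, 4 had a window and their 4 windows were lower, led by Pou4f1 at -11.8 points in the authors' deposited table. Of 5 Groucho co-repressor genes found, 3 had a window there, with 1 window higher and 3 lower. Values of the authors' deposited table are -12.6 points inside Tle1 (adjusted p = 1.26e-06), -11.9 points near Tle3 and 15.2 points 9.82 kb from Tle6. Of 23 known target genes 6 had a window in blood at week 8, with 5 windows lower and 1 higher. Of the 23, 6 are 100 kb or longer, a class in which 30.4% of coding genes outside the set had a window there. Among them the authors' deposited table gives -13.4 points at Auts2, a Tbr1 target, -13.2 points at Cntnap2, a Foxp2 target, and 13.0 points at the glutamate receptor gene Grin2b, another Tbr1 target.

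The target list was the 1 that held several windows in hippocampus, and these lay mostly in long genes. At week 3 it had 3 of 23 genes with a window, 2 windows higher and 4 lower, where 2.6% of all coding genes and 9.33% of those of 100 kb or more outside the set had one. The largest in the authors' deposited table were 24.1 and -17.2 points at Cntnap2 and -17.8 points at Myrf, the myelin regulator that Sox10 activates (adjusted p = 0.0536). Cntnap2 and Auts2 each held windows of both signs, so they gave no direction. At week 8, where 1.74% of coding genes had a window, the list held Grin2b at 14.7 points and Cntnap2 at -12.3 points, and at week 24 (2.43%) Auts2 at -17.0 points (adjusted p = 0.00928), in the authors' deposited table. In blood at week 3 it had 3 of 23 genes with a window (2.79% of coding genes), with Mbp, the myelin basic protein gene, at -12.7 points, Cntnap2 at 12.2 points and Auts2 at 10.6 points in the authors' deposited table. Blood at week 24 (1.25% of coding genes) had 3 higher windows of this list. They were at Auts2 (15.2 points), Grin2b (13.2 points) and Cntnap2 (10.2 points), in the authors' deposited table. Among coding genes of 100 kb or more outside the set, 10.8% had a window in blood at week 3 and 5.29% at week 24. In hippocampus that share was 7.68% at week 8 and 9.09% at week 24. The Groucho list had 1 further window, in blood at week 3 inside Tle1 at 11.7 points in the authors' deposited table.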

How the data were processed

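The authors' deposited table lists called 1 kb windows for 6 comparisons of App-NLGF with wild type, each of 20 libraries per the labels. The tools named per the submitters' processing notes are methylKit, Bismark, FastQC and Trim Galore, with the build mm10. Not given in the sources used here are their versions, the test, any coverage filter and the adjustment. The methylation difference, a signed score in percentage points, and the p-value and adjusted p-value were used as deposited by the authors. Columns of values per library numbered 0, so depth is unknown.

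Windows were assigned with the RefSeq gene table of GRCm38.p6, whose coordinates equal those of mm10 on the chromosomes used, in Python 3.11.15 with pandas 2.3.3, numpy 2.4.6 and matplotlib 3.10.9. The placement of windows was tested on simulated data. A gene was called when a window overlapped it or lay within 10 kb. No test was added to the authors' own: lists are described by counts beside the background of coding genes. The genes and lists were chosen with earlier results of these data known. Named were all genes with a window outside blood at week 8, and in that list the 10 smallest adjusted p, the 10 largest differences, genes with at least 2 windows or a window in another list, with the others added by range or value, and up to 3 windows per related list and comparison, of which 2 are not reported here. Alternatives changed reach, thresholds, gene ends, merging and background. 1 symbol of the Groucho list, Aes, had no match.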

Additional observations from a re-analysis of the deposited data

How the results depend on the processing

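Of 110 recomputed values 91 stayed within 1.5 times of the reported one (medians within the spread of the windows), 50 of them at 0 in both, and 19 moved. In blood at week 8, counting gene bodies alone left 15 genes and 19 lower windows, against 27 genes and 41 windows. Windows with an adjusted p under 0.01 numbered 24 there, windows away from gene ends 27, and windows of at least 15 points 2, at 2 genes. These settings keep part of the windows, so none could add a higher one. In hippocampus at weeks 3 and 24, an adjusted p under 0.01 or a size of at least 15 points left 0 genes and 0 windows of either sign, and in blood at week 3 the first of these left 0 genes and 0 higher windows. Over all annotated genes the share with a window in blood at week 8 was 12.3%. Taking the nearest coding gene alone, or merging windows within 10 kb, moved no count by over 1.5 times. No paired analysis was possible because the table holds no values per library. Leaving out libraries could not be run for the same reason.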
